A study of Homo sapiens with 24 samples.

Results

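Translation initiation and elongation factors are the proteins that load messenger RNA and the initiator tRNA onto the ribosome and then carry the ribosome along the message. Their transcripts were followed in 4 human acute myeloid leukaemia (AML) cell lines treated with the kinase inhibitor R406. The members are all genes measured under a single symbol that starts with EIF or EEF, without the eIF2 kinases (EIF2AK genes), EIF1AY and EEF1E1. This gives 48 of 12165 genes, measured by 95 probe sets, and the highest-mean probe set stands for a gene. The 2 genes of eIF4E binding proteins, EIF4EBP1 and EIF4EBP2, are described apart. EEF2K and EIF4EBP3 were not among the genes measured under a single symbol.

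Each line was given 4 µM R406 or, as its control, the solvent dimethyl sulfoxide (DMSO), both for 24 h, with 3 arrays in each of the 8 groups. The dose is that of the treatment protocol, while the design text writes mM. R406, into which the drug fostamatinib is converted in the body, blocks the tyrosine kinase SYK and several further kinases, so its effects cannot be assigned to SYK here. MOLM-14 and U937 are monocytic, HL-60 is promyelocytic and KG-1 comes from early myeloblasts, and U937 was first derived from a histiocytic lymphoma. Each is 1 established line. MOLM-14 carries an MLL fusion and an activating duplication in the receptor kinase FLT3. The labels do not say that the arrays of a group came from separate cultures, so p-values measure the spread between arrays, which may be technical.

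Initiation starts when eIF2, bound to GTP and the initiator tRNA, joins the small ribosomal subunit together with eIF1, eIF1A, eIF3 and eIF5. eIF2B recharges eIF2 with GTP, and kinases that phosphorylate eIF2 slow this step. The cap-binding complex eIF4F, made of eIF4E, the scaffold eIF4G and the helicase eIF4A, brings in the message. The eIF4E binding proteins hold eIF4E back when the kinase mTOR is inactive. eIF5B then joins the large subunit, and eEF1, eEF2 and eIF5A serve elongation. Many transcripts of the elongation factors and some of initiation factors begin with a tract of pyrimidines (C or T), the terminal oligopyrimidine (TOP) motif, through which mTOR controls their translation.

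Intensities on the Affymetrix arrays spanned 3.41 to 12686, and the arrays' medians lay between 19.1 and 21.4. Intensities are given on this linear scale, and changes are log2 fold changes of R406 minus DMSO computed on log2(intensity + 1), which understates changes of dim genes. A gene was called at a limma adjusted p under 0.05 over all 12165 genes. On single arrays the median log2 intensity of the members lay between 9.23 and 10.4, and that of all genes between 5.12 and 5.31. A typical member was thus brighter than most of the genes that the members are set beside. The part of this in the comparisons with all genes was not tested. The array values are relative within a sample, and in bulk RNA fewer cells of one kind and less RNA per cell cannot be told apart. Of the 7 measured myeloid markers, PTPRC and CEBPA were above an intensity of 100 in every group. Others were under 20 in some groups: CD34 in MOLM-14, U937 and HL-60, MPO in U937 and in MOLM-14 with R406, and FLT3 in U937. SPI1 was under 20 in KG-1 and in MOLM-14 with DMSO, and CSF3R in MOLM-14 with DMSO. The 7 measured of 9 myeloid markers summed to 5885 to 6518 with R406 against 3201 to 3281 with DMSO in MOLM-14, and to 2955 to 3320.4 with R406 against 2124 to 2372 with DMSO in KG-1. The 5 T cell markers summed to 147 to 195 with R406 against 80.4 to 105.6 with DMSO in KG-1, where LCK alone exceeded 100, and to at most 56.8 in the other lines. CD3E, CD3G and CD2 stayed under 20 everywhere. B cell, erythroid and megakaryocyte markers had none above 100. The 4 megakaryocyte markers summed to 59.6 to 68.1 with R406 against 86.2 to 117.9 with DMSO in KG-1, and to 50.9 to 56.2 with R406 against 39.3 to 41.7 with DMSO in MOLM-14. The 8 fibroblast and epithelial markers summed to 136 to 184 with R406 against 70.8 to 76.01 with DMSO in KG-1, and to 192 to 213 with R406 against 237 to 254 with DMSO in MOLM-14, with KRT18 above 100 in MOLM-14. KG-1 R406 replicate 2 lay furthest from its group mean, with a mean absolute deviation of 0.127 on the log2 scale. The 3' to 5' log2 ratio of ACTB, a sign of RNA quality, was 0.824 with R406 against 0.484 with DMSO in MOLM-14 and 0.851 with R406 against 0.728 with DMSO in KG-1. It was 0.452 with R406 against 0.491 with DMSO in U937 and 0.745 with R406 against 0.874 with DMSO in HL-60. The same ratio of GAPDH was -0.144 with R406 against -0.222 with DMSO in MOLM-14 and -0.065 against -0.166 in KG-1. For U937 it was -0.171 with R406 against -0.165 with DMSO, and for HL-60 0.115 against 0.126. The part of the marker sums and of these ratios in the results was not tested.

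RefSeq (GRCh38.p14) gave promoter windows for 38 of the 48 members. The first 15 bases from the annotated start are shown here because 5 of the 6 rising members with a window, but 0 of the 17 falling ones, begin with a run of pyrimidines that meets the TOP-like rule defined with the counts by start. Capitals mark an unbroken run of C or T from the first base. The first 6 are initiation factors called higher in both MOLM-14 and KG-1, and the last of them, EIF1, has no such start.
EIF2D, chr1:206612451-206612465, - strand: CCTTTTCgcggccgg
EIF2S3, chrX:24054956-24054970, + strand: CTCTTTTggcaacat
EIF3D, chr22:36529152-36529166, - strand: CTCTTTTCCTggttt
EIF3F, chr11:7987337-7987351, + strand: CTTCTTTCTCgacaa
EIF4A2, chr3:186783577-186783591, + strand: CTTTTCagtcgggcg
EIF1, chr17:41688885-41688899, + strand: gccccagtcactgag
The next 7 are among those called lower in both lines.
EIF2B3, chr1:44986581-44986595, - strand: agaggcggcgtggag
EIF2S1, chr14:67360328-67360342, + strand: atgcgcggtggagtg
EIF3B, chr7:2354827-2354841, + strand: atggctgggctgtag
EIF4E, chr4:98929119-98929133, - strand: gtgcgatcagatcga
EIF4G1, chr3:184314606-184314620, + strand: ggaaatggttgtgga
EIF4A1, chr17:7572825-7572839, + strand: CCTagtttctaagga
EIF5A, chr17:7306999-7307013, + strand: accacactagcgcgc
EEF1B2 and EEF1G, elongation factors that also fell in neither line, have no TOP-like start and are not printed. EEF1B2 is abundant, while EEF1G was dim under its single symbol but bright on probe sets shared with LOC729998. The last 2 are abundant elongation factors with a TOP-like start that fell in neither line.
EEF1A1, chr6:73521018-73521032, - strand: CTTTTTCgcaacggg
EEF2, chr19:3985449-3985463, - strand: CTCTTCCgccgtcgt

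In MOLM-14, 14 members were called higher and 19 lower with R406 (68.8% in all, where 56.1% of all genes were called), and in KG-1, 14 were higher and 23 lower (77.1%, where 44.3% of all genes were called). Over all genes, 31.1% were called higher and 25% lower in MOLM-14, and 23.5% and 20.9% in KG-1, so the share of members that fell (39.6% and 47.9%) was above that background while the share that rose (29.2% in each) was nearer to it. In U937, 0 members were called higher and 11 lower (22.9%, where 11.5% of all genes were called), and 6.1% of all genes were higher and 5.43% lower. At an unadjusted limma p under 0.05 the U937 counts were 0 higher and 19 lower, and those of HL-60 3 higher and 9 lower. MOLM-14 gave 14 higher and 20 lower at that threshold, and KG-1 15 higher and 23 lower. The share of all genes at the unadjusted threshold was not counted, so these counts have no background. In HL-60, 1 member was called higher and 4 lower (10.4%, where 15.2% of all genes were called), and 7.2% of all genes were higher and 7.98% lower. The median change of the members was -0.08 in MOLM-14, -0.09 in U937, -0.05 in HL-60 and -0.17 in KG-1, beside 0.07, 0.003, -0.003 and 0.02 over all genes. This median says little in MOLM-14 and KG-1, where the members split into a falling and a rising set. Falls of 2-fold or more were seen for 8 members in MOLM-14, where 9.06% of all genes fell that much, and for 10 in KG-1, where 4.39% did. For U937 and HL-60 the count was 0 members, where 0.0575% and 0.288% of all genes fell that much. In all 4 lines 0 members rose by that much, beside 6.4% of all genes in MOLM-14 and 3.43% in KG-1. Counting by arrays instead, all 3 R406 arrays lay above all 3 DMSO arrays for 15 members and below them for 20 in MOLM-14, where 57.7% of all genes did not overlap in either direction. The counts were 2 above and 24 below in U937 (34% of all genes), 4 and 12 in HL-60 (32.8%) and 15 and 23 in KG-1 (49.7%). These shares cover both directions. By direction, 3843 of the 12165 genes lay above and 3174 below in MOLM-14, and 2212 and 1930 in U937. HL-60 gave 1936 above and 2055 below, and KG-1 gave 3226 and 2826.

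**Figure D1:**
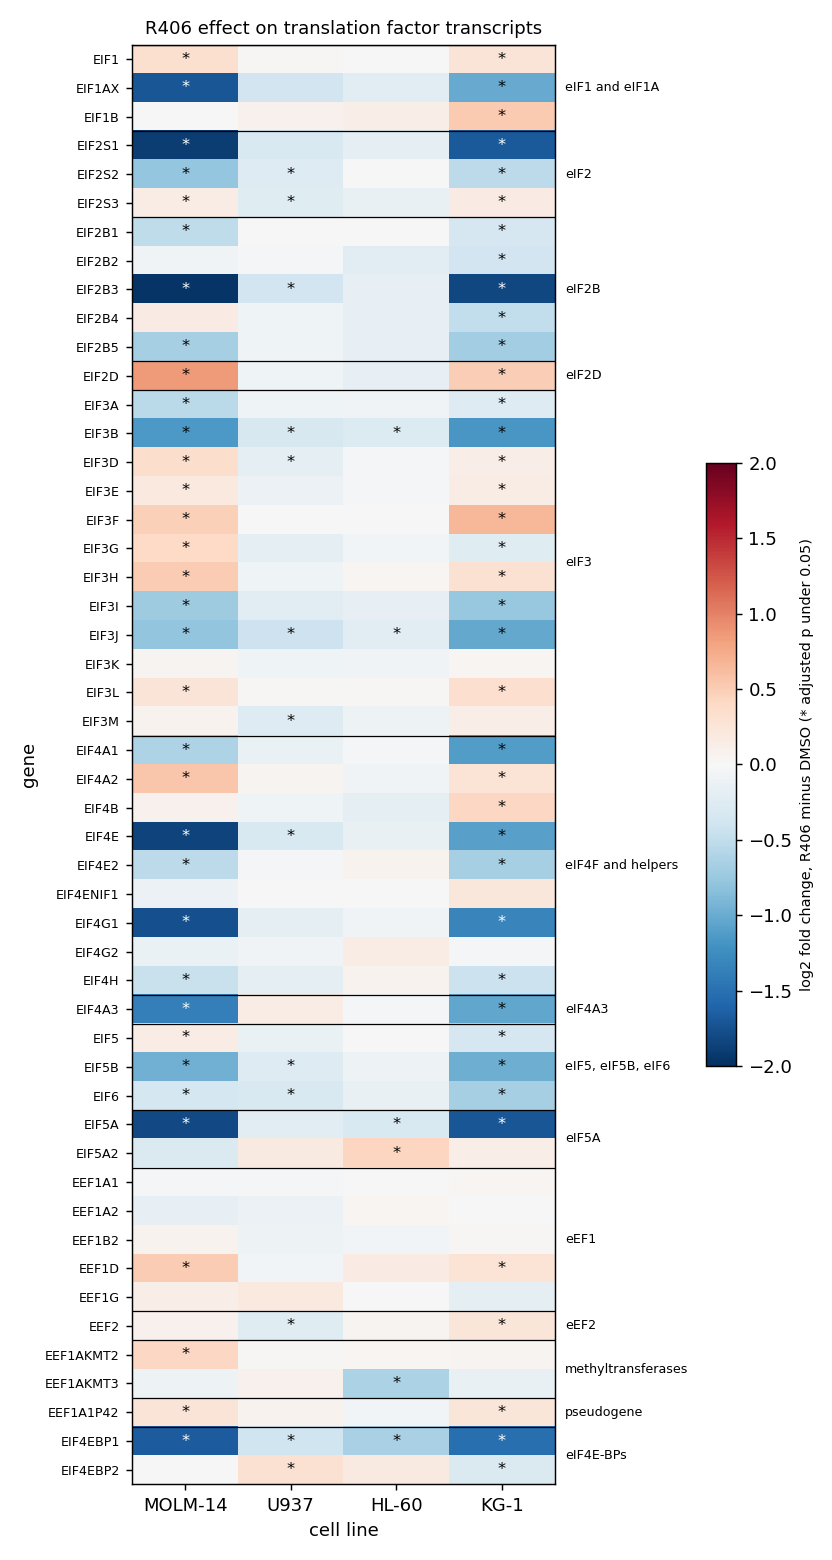
Log2 fold change of R406 minus DMSO (colour, blue lower, red higher) for the 48 factor genes and the 2 eIF4E binding protein genes (rows, grouped by complex) in the 4 lines (columns), with a star where the limma adjusted p is under 0.05. The MOLM-14 and KG-1 columns hold 33 and 37 stars among the 48 factor genes, against 11 in U937 and 5 in HL-60.

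Most factors that moved in MOLM-14 moved the same way in KG-1. These comparisons share no samples, but the error estimate of each gene comes from all 24 arrays. Calls in both lines are therefore not independent tests. All 19 members called lower in MOLM-14 were also called lower in KG-1, which is 100% of the MOLM-14 list and 82.6% of the 23 in KG-1. Over all genes the 1953 genes lower in both made up 64.3% of the MOLM-14 list and 77% of the KG-1 list. Among rising members, 11 were called in both lines, 78.6% of the 14 in each, beside 52.8% and 70% over all genes. Across the 48 members the 2 sets of fold changes had a Pearson correlation of 0.906. Across all 12165 genes, most of them dimmer than a typical member, it was 0.694. These are descriptions across genes, which are not independent replicates. The 2 sets differed in signal. Mean DMSO intensities of the 19 falling members ran from 184 to 6065 in MOLM-14, with a median of 947, and those of the 11 rising members from 39.5 to 6114, with a median of 2312. In KG-1 the medians were 874 for the falling and 2639 for the rising members. The part of signal level in the direction was not tested.

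eIF1 and eIF1A keep the small subunit open while it scans for the start codon. EIF1AX, the X-linked gene of eIF1A, read 174, 145 and 182 with R406 against 485, 569.5 and 597 with DMSO in MOLM-14, and 288, 231 and 316 with R406 against 561, 647 and 465 with DMSO in KG-1. All R406 arrays lay below all DMSO arrays in both lines. The changes of this probe set were -1.71 (SE 0.13, adjusted p = 4.98e-11) in MOLM-14 and -1.001 (SE 0.13, adjusted p = 5.09e-07) in KG-1. In U937 the change of -0.38 (SE 0.13, adjusted p = 0.051) did not pass the threshold, although the arrays did not overlap there either, and it passed without any 1 of 9 of the 24 arrays (adjusted p = 0.0273 to 0.0496). The 2 other EIF1AX probe sets gave -1.27 and -1.06 in MOLM-14. In KG-1 they gave -0.38, called lower, and -0.16, not called (adjusted p = 0.263 over all probe sets). The first of them was also called lower in U937, at -0.26, and in HL-60, at -0.21, so the size in KG-1 and the calls in U937 and HL-60 depend on the probe set. EIF1 rose by 0.31 (SE 0.059, adjusted p = 7.22e-05) in MOLM-14 and by 0.25 (SE 0.059, adjusted p = 0.000929) in KG-1. A further 3 EIF1 probe sets gave 0.18 to 0.21 in MOLM-14 and were called lower in U937, at -0.34 to -0.35, where the brightest probe set gave 0.016. In KG-1 those 3 further probe sets gave 0.13 each and were not called (adjusted p = 0.0771 to 0.103 over all probe sets). In HL-60 they gave 0.16 to 0.23, with calls of higher at 0.21 and 0.23. A dim EIF1 probe set gave -0.48 in KG-1, so the call and the direction there depend on the probe set. EIF1B, a close homologue of EIF1, read 1608, 1907 and 1624 with R406 against 1142, 1200.2 and 1207 with DMSO in KG-1. It rose there by 0.53 (SE 0.064, adjusted p = 3.46e-07) and changed by -0.01 in MOLM-14, a call in KG-1 alone.

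eIF2 carries the initiator tRNA and has an alpha subunit (EIF2S1), a beta subunit (EIF2S2) and a gamma subunit (EIF2S3). EIF2S1 encodes the subunit that stress kinases phosphorylate. Its intensity was 143, 107 and 163 with R406 against 503, 528 and 499 with DMSO in MOLM-14, and 312, 255 and 310.3 with R406 against 1002, 897 and 913 with DMSO in KG-1. No R406 array came within 2-fold of a DMSO array of its line. The change was -1.90 (SE 0.11, adjusted p = 6.65e-13) in MOLM-14 and -1.68 (SE 0.11, adjusted p = 1.59e-11) in KG-1. U937 gave -0.30 (SE 0.11, adjusted p = 0.0762) and HL-60 -0.18 (SE 0.11, adjusted p = 0.326), of which the U937 change passed without MOLM-14 R406 replicate 2 or 3 or KG-1 R406 replicate 2 (adjusted p = 0.0155 to 0.0489). The 2 other EIF2S1 probe sets fell less, by 1.60 and 1.15 in MOLM-14 and by 0.86 and 1.01 in KG-1, and 1 of them was called lower in U937, at -0.30 (adjusted p = 0.0119 over all probe sets). EIF2S2 fell in 3 lines, by 0.78 in MOLM-14, 0.26 in U937 and 0.52 in KG-1 (adjusted p = 3.55e-11, 0.00347 and 5.56e-08). EIF2S3 went the other way in 2 lines, with 0.14 (SE 0.058, adjusted p = 0.0412) in MOLM-14 and 0.17 (SE 0.058, adjusted p = 0.0196) in KG-1, and fell in U937 with -0.25 (SE 0.058, adjusted p = 0.00719). The MOLM-14 call of EIF2S3 was lost without MOLM-14 DMSO replicate 2 or 3 or MOLM-14 R406 replicate 2 or 3 (adjusted p = 0.0767 to 0.101), and the KG-1 call without KG-1 DMSO replicate 1 or 2 or KG-1 R406 replicate 3 (adjusted p = 0.0753 to 0.0979). EIF2S1 and EIF2S2 were thus lower in both lines and EIF2S3 was not.

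eIF2B, the exchange factor that reloads eIF2 with GTP, has 5 subunits, all measured. In KG-1 all 5 were called lower, and in MOLM-14 EIF2B1, EIF2B3 and EIF2B5 were. EIF2B3, the gamma subunit, had the largest fall in both lines among the probe sets that stand for the members. It read 71.5, 84.6 and 60.3 with R406 against 289, 283 and 273 with DMSO in MOLM-14, and 64.9, 53.3 and 66.9 with R406 against 208, 205 and 244 with DMSO in KG-1. No R406 array came within 2-fold of a DMSO array of its line. The change was -1.96 (SE 0.11, adjusted p = 2.7e-13) in MOLM-14, -1.81 (SE 0.11, adjusted p = 3.43e-12) in KG-1 and -0.38 (SE 0.11, adjusted p = 0.0216) in U937. The U937 call was lost without U937 DMSO replicate 1 or 3 or U937 R406 replicate 3 (adjusted p = 0.0681 to 0.098). The catalytic epsilon subunit EIF2B5 changed by -0.66 (SE 0.074, adjusted p = 6e-08) in MOLM-14 and -0.69 (SE 0.074, adjusted p = 5.61e-08) in KG-1. EIF2B1, the alpha subunit, gave -0.51 (SE 0.058, adjusted p = 7.18e-08) and -0.33 (SE 0.058, adjusted p = 5.35e-05) in these lines. EIF2B4, the delta subunit, fell by 0.50 in KG-1 (adjusted p = 2.66e-05), with 0.17 in MOLM-14 that did not pass. EIF2B2, the beta subunit, fell by 0.39 in KG-1 (adjusted p = 0.000502). EIF2D, which can deliver initiator tRNA without GTP and also acts in ribosome recycling, rose. Its arrays read 991, 1008 and 992 with R406 against 536, 551 and 562 with DMSO in MOLM-14, and 598, 718 and 549 with R406 against 471, 405 and 448 with DMSO in KG-1. This was the largest rise of a member in MOLM-14, at 0.86 (SE 0.083, adjusted p = 6.08e-09), and KG-1 gave 0.49 (SE 0.083, adjusted p = 3.48e-05).

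**Figure D2:**
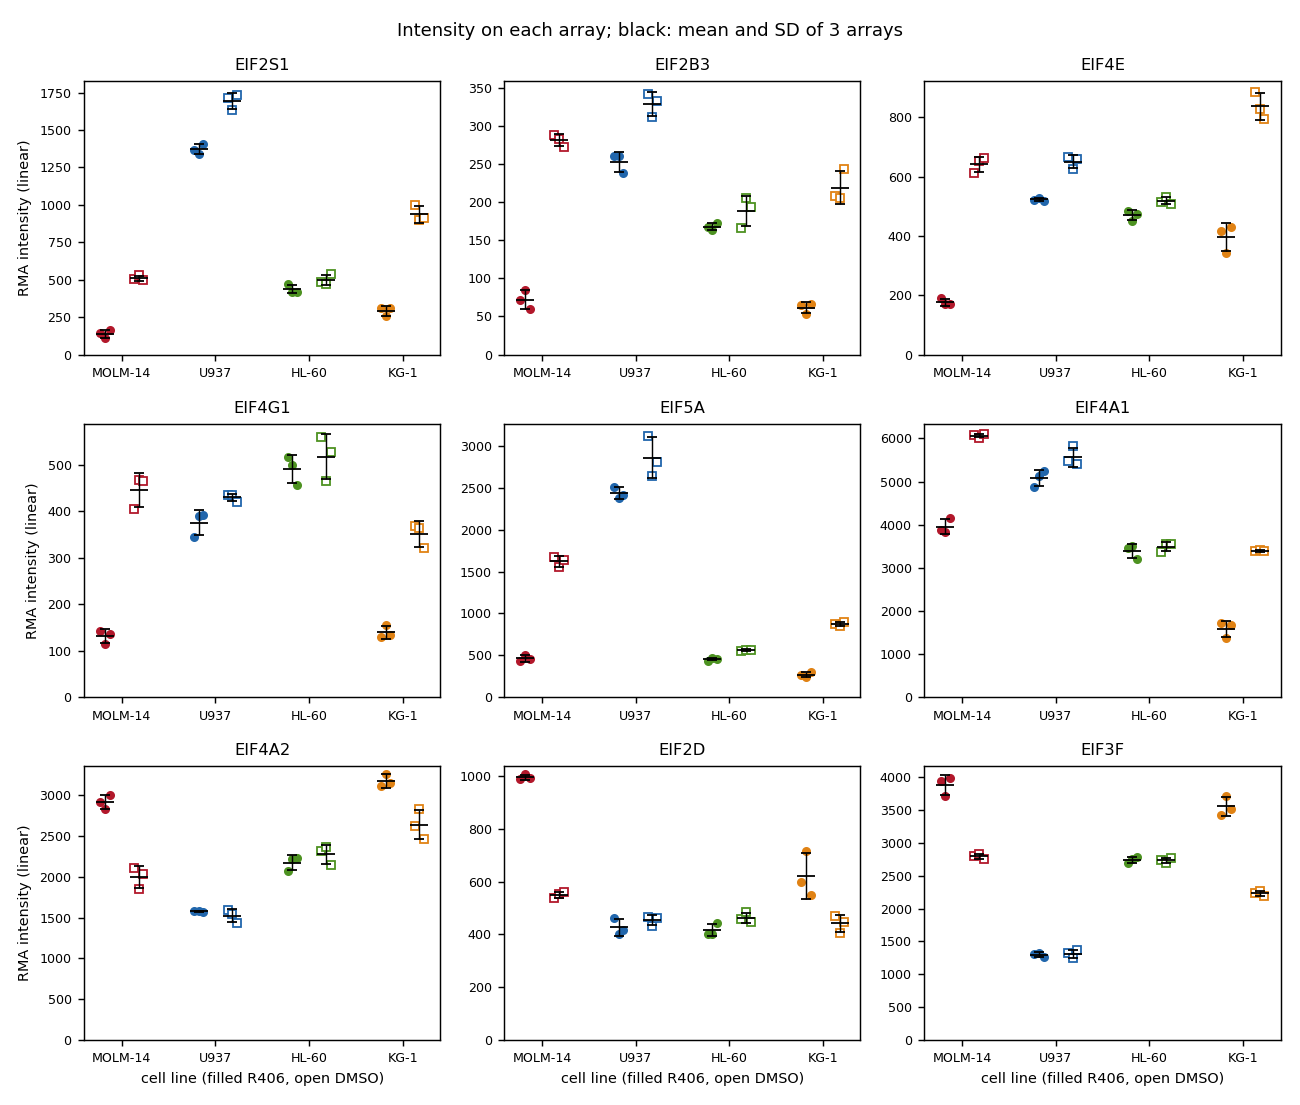
RMA intensity on a linear axis (y) for 9 factor genes in each line (x), with R406 arrays as filled circles left of DMSO arrays as open squares, and the mean and SD of 3 arrays in black. EIF2S1, EIF2B3, EIF4E, EIF4G1, EIF5A and EIF4A1 sit lower with R406 in MOLM-14 and KG-1, and EIF4A2, EIF2D and EIF3F sit higher.

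eIF3 is the largest initiation factor and the scaffold between the small subunit, eIF4G and the message, and 12 of its subunit genes were measured under one symbol. They split: in MOLM-14, 6 rose and 4 fell, and in KG-1, 5 rose and 5 fell. EIF3A, EIF3B, EIF3I and EIF3J were lower in both lines. EIF3D, EIF3E, EIF3F, EIF3H and EIF3L were higher in both. EIF3G rose in MOLM-14 by 0.40 (adjusted p = 1.11e-05) and fell in KG-1 by 0.24 (adjusted p = 0.00301). EIF3K and, on its brightest probe set, EIF3M passed in neither. A dim EIF3M probe set was called lower in both, at -0.83 in MOLM-14 and -0.55 in KG-1 (adjusted p = 0.000259 and 0.0118 over all probe sets).

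EIF3A, EIF3B, EIF3G and EIF3I belong to the core around EIF3B, and EIF3J is a loosely bound subunit. EIF3B read 461, 383 and 439 with R406 against 959, 937.26 and 944 with DMSO in MOLM-14. In KG-1 it read 437, 443 and 488 with R406 against 1012, 1015 and 1029 with DMSO. EIF3B and EIF3J were the 2 members called lower in all 4 lines, a pattern that 1.79% of all genes showed, and 0 members were called higher in all 4, where 1.06% of all genes were. For EIF3B the changes were -1.15 (SE 0.065, adjusted p = 6.29e-13) in MOLM-14, -0.32 (SE 0.065, adjusted p = 0.0019) in U937, -0.28 (SE 0.065, adjusted p = 0.00475) in HL-60 and -1.16 (SE 0.065, adjusted p = 1.81e-12) in KG-1. EIF3J gave -0.78 (SE 0.068, adjusted p = 8.57e-10) in MOLM-14, -0.42 (SE 0.068, adjusted p = 0.000249) in U937, -0.21 (SE 0.068, adjusted p = 0.0357) in HL-60 and -1.02 (SE 0.068, adjusted p = 2.6e-11) in KG-1. Its HL-60 call was lost without HL-60 DMSO replicate 1 or 3 or HL-60 R406 replicate 1, 2 or 3 (adjusted p = 0.0574 to 0.129). EIF3I changed by -0.71 (SE 0.078, adjusted p = 4.12e-08) in MOLM-14 and -0.76 (SE 0.078, adjusted p = 2.37e-08) in KG-1. EIF3A, the largest subunit, gave -0.54 (SE 0.071, adjusted p = 5.96e-07) and -0.26 (SE 0.071, adjusted p = 0.00363) in these lines, and 1 of its other probe sets gave -1.33 in MOLM-14. EIF3C, another large subunit, shares its 3 probe sets with the copy EIF3CL and is not a member. Those probe sets gave -0.37 to -0.43 in MOLM-14, -0.24 to -0.28 in U937, -0.21 to -0.26 in HL-60 and -0.86 to -0.97 in KG-1, values given without a test.

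Among the rising subunits, EIF3F read 3946, 3714 and 3992 with R406 against 2797, 2837 and 2754 with DMSO in MOLM-14, and 3430.0, 3721 and 3518 with R406 against 2239.7, 2266 and 2191 with DMSO in KG-1. The arrays did not overlap in either line. The rise was 0.47 (SE 0.056, adjusted p = 1.32e-07) in MOLM-14 and 0.67 (SE 0.056, adjusted p = 9.94e-10) in KG-1, the largest rise of a member in KG-1. EIF3H gave 0.51 (SE 0.059, adjusted p = 9.78e-08) and 0.30 (SE 0.059, adjusted p = 0.00017), and EIF3L gave 0.26 (SE 0.054, adjusted p = 0.000248) and 0.34 (SE 0.054, adjusted p = 1.38e-05). EIF3F and EIF3H carry MPN domains, and EIF3E, EIF3L and EIF3M carry PCI domains, of the eIF3 octamer. The same octamer holds EIF3A, which fell in both lines, and EIF3K, which like the brightest probe set of EIF3M passed in neither. The direction thus did not follow this part of eIF3. EIF3D, a cap-binding subunit, rose by 0.35 in MOLM-14 (adjusted p = 1.39e-05), stood at 0.14 (SE 0.057, adjusted p = 0.0494) in KG-1 and fell in U937 with -0.20 (SE 0.057, adjusted p = 0.0215). The KG-1 call of EIF3D was lost without any 1 of 21 of the 24 arrays (adjusted p = 0.0503 to 0.201), and its U937 call without U937 DMSO replicate 2 or 3 or U937 R406 replicate 2 or 3 (adjusted p = 0.0749 to 0.0886). EIF3E stood near the threshold in KG-1 at 0.14 (SE 0.057, adjusted p = 0.0446), with 0.19 (SE 0.057, adjusted p = 0.00652) in MOLM-14. In U937 the 4 eIF3 calls were all lower, for EIF3B, EIF3D, EIF3J and EIF3M, the last with -0.26 (SE 0.069, adjusted p = 0.0136). The EIF3M call was lost without U937 DMSO replicate 1 or 2 or U937 R406 replicate 1 (adjusted p = 0.0608 to 0.0644), while EIF3G, at -0.18 in U937, passed there without KG-1 DMSO replicate 2 or KG-1 R406 replicate 2 (adjusted p = 0.0454 to 0.0463).

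**Figure D3:**
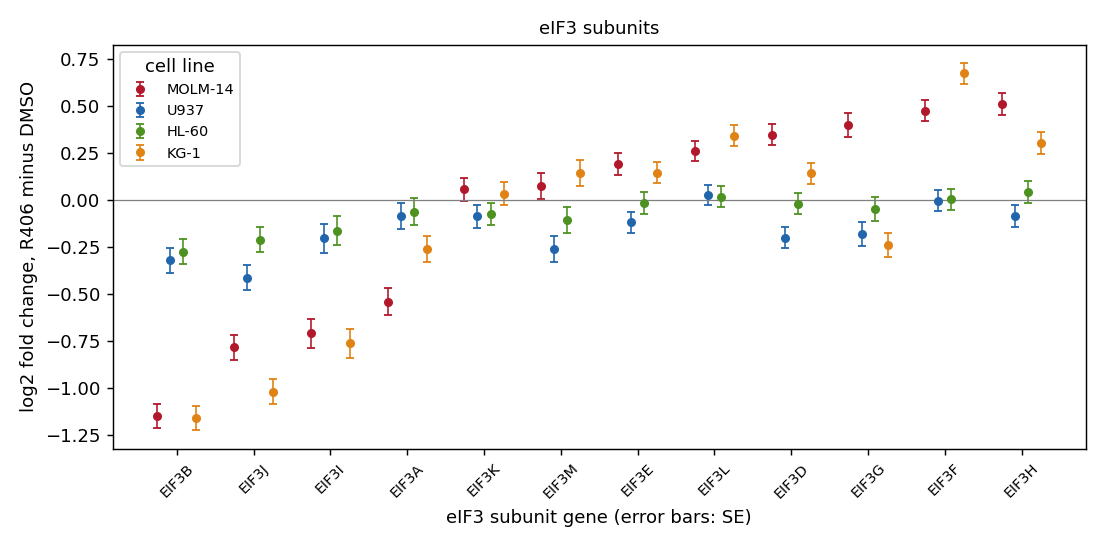
Log2 fold change of R406 minus DMSO (y) with its SE for 12 eIF3 subunit genes (x) in the 4 lines. In MOLM-14 and KG-1 the subunits ran from -1.15 and -1.16 for EIF3B to 0.51 for EIF3H in MOLM-14 and 0.67 for EIF3F in KG-1, while U937 and HL-60 stayed between -0.42 and 0.04.

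eIF4F recognises the cap of the message. EIF4E, the cap-binding protein, read 191, 170.0 and 171 with R406 against 613, 651 and 661 with DMSO in MOLM-14, 522, 528 and 519 with R406 against 666, 625 and 659 with DMSO in U937, and 417, 343 and 431 with R406 against 886, 829 and 795 with DMSO in KG-1. In each of these lines every R406 array lay below every DMSO array. The change was -1.85 (SE 0.075, adjusted p = 2.17e-15) in MOLM-14, -0.31 (SE 0.075, adjusted p = 0.00787) in U937 and -1.08 (SE 0.075, adjusted p = 5.69e-11) in KG-1. Its 2 other probe sets gave -1.67 and -1.78 in MOLM-14 and were not called in U937. EIF4G1, the scaffold, read 143, 115 and 135 with R406 against 404, 466 and 466 with DMSO in MOLM-14, and 129, 156 and 134 with R406 against 369, 364 and 319.5 with DMSO in KG-1. It changed by -1.76 (SE 0.10, adjusted p = 3.07e-13) in MOLM-14 and -1.33 (SE 0.10, adjusted p = 1.02e-10) in KG-1, with -0.20 in U937 and -0.075 in HL-60 that did not pass. EIF4G2 (DAP5), a relative that does not bind eIF4E, passed in no line on its brightest probe set, with changes between -0.13 and 0.14. A dim EIF4G2 probe set was called higher in MOLM-14, at 0.47 (adjusted p = 0.000994 over all probe sets). EIF4E2, a cap-binding homologue that can repress translation, changed by -0.52 (SE 0.064, adjusted p = 2.46e-07) in MOLM-14 and -0.66 (SE 0.064, adjusted p = 1.12e-08) in KG-1. EIF4ENIF1, which carries eIF4E into the nucleus, passed in no line.

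The 2 paralogous helicases of eIF4F moved in opposite directions. EIF4A1 read 3879.7, 3836 and 4146 with R406 against 6081, 6017 and 6097 with DMSO in MOLM-14, and 1714, 1361 and 1661 with R406 against 3388, 3423 and 3384 with DMSO in KG-1. EIF4A2 read 2922, 2838 and 3008 with R406 against 2114, 1855 and 2029 with DMSO in MOLM-14, and 3113, 3268 and 3148 with R406 against 2619.7, 2828 and 2469 with DMSO in KG-1. In both lines the R406 arrays lay below the DMSO arrays for EIF4A1 and above them for EIF4A2. EIF4A1 changed by -0.62 (SE 0.072, adjusted p = 1.16e-07) in MOLM-14 and -1.11 (SE 0.072, adjusted p = 1.87e-11) in KG-1, while a dimmer EIF4A1 probe set gave -0.18 in MOLM-14 and was not called. EIF4A2 changed by 0.55 (SE 0.067, adjusted p = 2.18e-07) in MOLM-14 and 0.27 (SE 0.067, adjusted p = 0.00185) in KG-1. EIF4A3, a related helicase of the exon junction complex and not of eIF4F, changed by -1.37 (SE 0.074, adjusted p = 3.02e-13) and -1.04 (SE 0.074, adjusted p = 7.84e-11), with 0.14 in U937 and -0.029 in HL-60. The helper proteins that stimulate eIF4A also differed. EIF4H fell, with -0.45 (SE 0.073, adjusted p = 1.48e-05) in MOLM-14 and -0.43 (SE 0.073, adjusted p = 2.97e-05) in KG-1. EIF4B rose in KG-1, with 0.41 (SE 0.071, adjusted p = 4.79e-05), and stood at 0.089 in MOLM-14. In HL-60 EIF4B, at -0.19, passed as lower without KG-1 R406 replicate 2 (adjusted p = 0.0270). Another EIF4B probe set was called higher in MOLM-14, at 0.31, and lower in HL-60, at -0.27.

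EIF5B, the GTPase that joins the large subunit, read 746, 629 and 690.0 with R406 against 1303, 1338 and 1376 with DMSO in MOLM-14, and changed by -0.96 (SE 0.083, adjusted p = 7.9e-10) there, -0.98 (SE 0.083, adjusted p = 1.21e-09) in KG-1 and -0.26 (SE 0.083, adjusted p = 0.0418) in U937. The 5 other EIF5B probe sets gave -0.47 to -2.51 in MOLM-14 and -0.58 to -1.49 in KG-1, all called lower, so the size of its fall depends on the probe set. None of the 5 was called in U937. There the EIF5B call was lost without any 1 of 8 of the 24 arrays (adjusted p = 0.0501 to 0.151). EIF6, which keeps free large subunits from joining, fell in 3 lines, with -0.34 (SE 0.068, adjusted p = 0.000144) in MOLM-14, -0.30 (SE 0.068, adjusted p = 0.0054) in U937 and -0.66 (SE 0.068, adjusted p = 2.82e-08) in KG-1. EIF5 activates GTP hydrolysis by eIF2 at the start codon. Its brightest probe set gave 0.15 (SE 0.06, adjusted p = 0.0344) in MOLM-14 and -0.34 (SE 0.06, adjusted p = 4.22e-05) in KG-1. In MOLM-14 2 other EIF5 probe sets were called lower, at -0.69 and -0.58, so its direction in that line is not settled, while in KG-1 they gave -0.78 and -0.91. The MOLM-14 call of its brightest probe set was also lost without MOLM-14 DMSO replicate 2 or 3 or MOLM-14 R406 replicate 2 (adjusted p = 0.0637 to 0.154).

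EIF5A, the hypusine-carrying factor that helps the ribosome past stalling peptides, read 427, 506 and 461 with R406 against 1669, 1553 and 1640.1 with DMSO in MOLM-14. In KG-1 it read 268, 237 and 296 with R406 against 877, 847 and 899 with DMSO, and in HL-60 437, 465 and 456 with R406 against 552, 568 and 565 with DMSO. The groups did not overlap in any of these lines. The changes were -1.80 (SE 0.079, adjusted p = 6.76e-15) in MOLM-14, -1.71 (SE 0.079, adjusted p = 8.08e-14) in KG-1 and -0.31 (SE 0.079, adjusted p = 0.00808) in HL-60, and U937 gave -0.23 (SE 0.079, adjusted p = 0.064), which passed without MOLM-14 R406 replicate 2, U937 DMSO replicate 2 or KG-1 R406 replicate 2 or 3 (adjusted p = 0.0287 to 0.0476). The 2 other EIF5A probe sets gave -1.56 and -1.47 in MOLM-14, and both were called lower in U937. EIF5A2, its paralogue, was dim, with intensities between 8.16 and 21.1 on all arrays, and its call in HL-60, 0.43 (SE 0.13, adjusted p = 0.029), was lost without HL-60 DMSO replicate 1 or 3 or HL-60 R406 replicate 2 or 3 (adjusted p = 0.0707 to 0.113).

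Of the 5 eEF1 genes only EEF1D was called, and EEF2 was called in KG-1 and U937. EEF1A1, which brings aminoacyl-tRNA to the ribosome, had changes between -0.04 and 0.04 in the 4 lines and passed in none. Its intensities, 9472 to 12362, lie near the top of the range of the arrays. EEF1B2, a subunit of the exchange factor for eEF1A, passed in no line, with 6377, 6351 and 6601 with R406 against 5971, 6245 and 6269 with DMSO in MOLM-14. EEF1D, another exchange subunit, rose with 0.50 (SE 0.072, adjusted p = 2.45e-06) in MOLM-14 and 0.27 (SE 0.072, adjusted p = 0.00317) in KG-1, and a dimmer probe set gave 1.35 in MOLM-14. EEF1G, the structural subunit, was dim under its single symbol, while 3 probe sets that it shares with LOC729998 read 6614 to 7554 on average and gave 0.13 to 0.17 in MOLM-14 and 0.16 to 0.21 in KG-1, without a test. EEF1A2, the muscle and neuron form, was dim, between 7.14 and 17.1 on all arrays, and passed in no line. It passed as lower in MOLM-14 without MOLM-14 R406 replicate 3 (adjusted p = 0.0255). EEF2, the translocase, rose in KG-1 with 0.24 (SE 0.067, adjusted p = 0.00424) and fell in U937 with -0.24 (SE 0.067, adjusted p = 0.0227). It read 6279, 6317 and 6092 with R406 against 5433, 5554 and 4818 with DMSO in KG-1, and 4659, 5000.4 and 4946 with R406 against 5661, 5904 and 5644 with DMSO in U937. The U937 call was lost without U937 DMSO replicate 1 or 2 or U937 R406 replicate 1 or 3 (adjusted p = 0.0522 to 0.11). Of the remaining members, the methyltransferase genes EEF1AKMT2 and EEF1AKMT3 had 1 call each, higher in MOLM-14 at an intensity near 9.48 with R406 against 6.86 with DMSO for EEF1AKMT2, and lower in HL-60 with overlapping arrays for EEF1AKMT3. The EEF1AKMT3 call was lost without HL-60 DMSO replicate 2 or HL-60 R406 replicate 3 (adjusted p = 0.0569 to 0.0576). EEF1A1P42, a pseudogene of EEF1A1, was called higher in MOLM-14 and KG-1 with means of 47.3 and 30.4 with R406 against 39.5 and 25.5 with DMSO, and its signal cannot be separated here from that of EEF1A1 and its other copies.

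Of the 2 eIF4E binding proteins, EIF4EBP1 fell in all 4 lines. It read 271, 281 and 308 with R406 against 883, 918 and 941 with DMSO in MOLM-14, and 831, 874 and 896 with R406 against 1122, 1181 and 1139 with DMSO in U937. It read 388, 377 and 329.6 with R406 against 573, 574 and 559.7 with DMSO in HL-60, and 530.5, 412 and 512 with R406 against 1434, 1318 and 1369.8 with DMSO in KG-1. No line had overlapping groups. The changes were -1.67 (SE 0.082, adjusted p = 5.7e-14) in MOLM-14, -0.40 (SE 0.082, adjusted p = 0.00207) in U937, -0.64 (SE 0.082, adjusted p = 7.36e-06) in HL-60 and -1.51 (SE 0.082, adjusted p = 1.14e-12) in KG-1. EIF4EBP2 rose in U937, with 0.30 (SE 0.074, adjusted p = 0.00912), and fell in KG-1, with -0.29 (SE 0.074, adjusted p = 0.00249). The U937 call was lost without U937 R406 replicate 1 (adjusted p = 0.0540). EIF4EBP3 was measured only on a probe set shared with ANKHD1-EIF4EBP3. That probe set gave -0.73 in MOLM-14, 0.31 in U937, -0.31 in HL-60 and 0.35 in KG-1, without a test. In MOLM-14 and KG-1, EIF4E and its inhibitor EIF4EBP1 were thus both lower.

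The R406 effect differed between the 4 lines for 40 of 48 members (83.3%) by a moderated F test, where 54.8% of all genes passed. The widest ranges of the 4 effects were 1.80 for EIF2B3 (adjusted p = 2.1e-10), 1.72 for EIF2S1 (adjusted p = 6.34e-10) and 1.71 for EIF4E (adjusted p = 1.57e-11), all on the log2 scale. Compared with the mean effect in the other 3 lines, the MOLM-14 effect was higher for 13 members and lower for 19, where 23.6% of all genes were higher and 22.3% lower. For EIF4E this difference was -1.34 (SE 0.087, adjusted p = 1.85e-11), and for EIF2D 0.78 (SE 0.096, adjusted p = 5.11e-07). EIF4A1, with a difference of -0.19 (adjusted p = 0.0669), and EIF6, with 0.022 (adjusted p = 0.846), did not pass. The mean of the other 3 lines includes U937 and HL-60, so a call does not mean a larger change than in KG-1. EIF3B and EIF3J, both called lower, changed by -1.15 and -0.78 in MOLM-14 but by -1.16 and -1.02 in KG-1. EIF4E, also called lower, changed by -1.85 in MOLM-14 and -1.08 in KG-1.

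Levels in DMSO differed between lines for 47 of 48 members, where 68.1% of all genes passed, and the one that did not was EEF1AKMT2. EIF5A had the widest range of the 4 DMSO means, 2.34 on the log2 scale (adjusted p = 6.11e-17). It averaged 2859.7 ± 243 in U937, 1621 ± 60.4 in MOLM-14, 874 ± 25.9 in KG-1 and 561 ± 8.28 in HL-60 (SD, n = 3 each). EIF2S1 averaged 1693 ± 51.4 in U937, 937.43 ± 56.2 in KG-1, 510.1 ± 15.8 in MOLM-14 and 497 ± 35.6 in HL-60, the last pair within their spread. EIF2S3 averaged 1179 ± 23.8 in MOLM-14, 1113 ± 22.6 in U937, 776 ± 10.4 in HL-60 and 345 ± 22.2 in KG-1. EIF4B averaged 2561 ± 139.6 in HL-60 and 2490.2 ± 87.5 in MOLM-14, within their spread, with 1107 ± 20.02 in KG-1 and 897 ± 37.5 in U937. EIF2B2 averaged 238 ± 6.75 in KG-1 and 238 ± 18.9 in U937, within their spread, with 119 ± 6.10 in MOLM-14 and 84.8 ± 7.44 in HL-60. EEF1AKMT3 ranged over 1.85, with 83.3 ± 1.51 in U937, 44.2 ± 5.00 in MOLM-14, 26.7 ± 6.01 in HL-60 and 22.4 ± 1.26 in KG-1. The line with the highest or lowest level thus changed with the factor.

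The start of the annotated transcript was compared between the members that rose and those that fell, as counts without a test. A start was counted as TOP-like when its first base was C and the next 4 were C or T on the transcript strand. Of all 27305 RefSeq promoters 4.04% had such a start, and of the 9710 tested genes with a window 5.02%. Among members with a window it was 10 of 38 (26.3%). Of the 17 that fell in both MOLM-14 and KG-1 the count was 0, and of the 6 that rose in both it was 5: EIF2D, EIF2S3, EIF3D, EIF3F and EIF4A2. No window was used for 5 of the 11 members that rose in both (EEF1A1P42, EEF1D, EIF3E, EIF3H and EIF3L) and for 2 of the 19 that fell in both, so the 6 are not all the rising members. The KG-1 calls of EIF2S3 and EIF3D and the MOLM-14 call of EIF2S3 were lost without single arrays, as given with these genes. Of the other 15 it was 5: EEF1A1, EEF2, EIF3K, EIF3M and EIF4B. In MOLM-14, 5 of the 10 with a TOP-like start were called higher and 0 lower, against 3 higher and 17 lower of the 28 with another start. KG-1 gave 7 higher and 0 lower of 10, against 2 higher and 20 lower of 28. At an unadjusted limma p under 0.05, 0 of the 10 were still lower in either line. U937 gave 0 higher and 4 lower of 10, against 0 higher and 6 lower of 28. HL-60 gave 0 higher and 0 lower of 10, against 1 higher and 3 lower of 28. Among the 477 tested genes outside the members with a TOP-like start, 39.2% rose and 23.9% fell in MOLM-14, beside 30.9% and 26.4% of all tested genes with another start. In KG-1 those 477 gave 29.8% and 19.1%, beside 24% and 22.6%. In U937 they leaned the other way, with 3.98% higher and 8.81% lower, beside 6.47% and 5.32%. In HL-60 they gave 6.29% and 8.18%, beside 7.5% and 8.42%. A match in the annotated window is a description, and the starts used in these cells were not measured here.

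**Figure D4:**
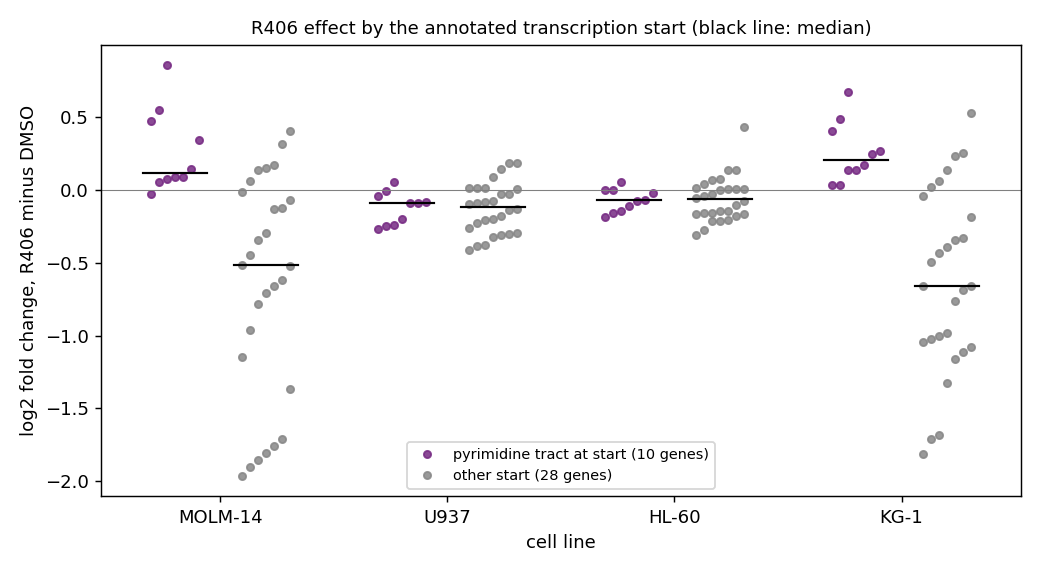
Log2 fold change of R406 minus DMSO (y) in the 4 lines (x) for 10 factor genes with a TOP-like start (purple) and 28 with another start (grey), 1 point per gene with the median as a black line. The medians were 0.12 and -0.52 in MOLM-14 and 0.21 and -0.66 in KG-1, and near each other in U937 (-0.088 and -0.11) and HL-60 (-0.072 and -0.065).

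The letters CACGTG, the E-box that MYC and MAX among others can bind, were searched in the same windows of 300 bases (the motif reads the same on both strands). They were found for 10 of 38 members (26.3%), for 9.43% of the tested genes with a window and for 7.43% of all promoters. Counts were 5 of 17 among members that fell in both lines (EIF2B3, EIF4A3, EIF4E, EIF4G1 and EIF4H), 1 of 6 among those that rose in both (EIF3F) and 4 of 15 among the others (EIF1B, EIF3K, EIF4B and EIF5A2). EIF4E has it at -225 and -72 and EIF4G1 at -144 and -67, counted from the start. The 250 bases before the start are printed for these 2 and for EIF3F, which rose and has it at -68, and EIF4A2, which rose and has none. Capitals mark the E-box.
EIF4E, chr4:98929134-98929383, - strand: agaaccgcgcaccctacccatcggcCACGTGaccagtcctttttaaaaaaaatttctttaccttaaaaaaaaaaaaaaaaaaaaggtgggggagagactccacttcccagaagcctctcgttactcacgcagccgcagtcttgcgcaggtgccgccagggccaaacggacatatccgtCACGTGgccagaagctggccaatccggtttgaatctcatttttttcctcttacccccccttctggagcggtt
EIF4G1, chr3:184314356-184314605, + strand: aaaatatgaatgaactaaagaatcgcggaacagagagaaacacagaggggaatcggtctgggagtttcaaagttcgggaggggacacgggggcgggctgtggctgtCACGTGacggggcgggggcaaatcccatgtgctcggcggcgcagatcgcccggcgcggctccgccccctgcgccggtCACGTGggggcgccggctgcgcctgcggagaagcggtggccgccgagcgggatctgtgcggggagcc
EIF3F, chr11:7987087-7987336, + strand: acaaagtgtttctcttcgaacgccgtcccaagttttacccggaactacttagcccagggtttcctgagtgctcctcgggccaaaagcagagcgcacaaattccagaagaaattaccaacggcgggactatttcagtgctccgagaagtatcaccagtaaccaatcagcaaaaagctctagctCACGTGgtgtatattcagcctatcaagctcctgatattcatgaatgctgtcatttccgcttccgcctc
EIF4A2, chr3:186783327-186783576, + strand: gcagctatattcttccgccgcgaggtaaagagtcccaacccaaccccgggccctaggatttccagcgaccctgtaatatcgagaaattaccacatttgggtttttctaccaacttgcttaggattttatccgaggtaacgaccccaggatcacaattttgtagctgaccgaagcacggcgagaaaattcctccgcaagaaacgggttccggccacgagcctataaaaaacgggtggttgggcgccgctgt
MYC itself fell in all 4 lines, with 366, 381 and 398 with R406 against 3853, 4122 and 4004 with DMSO in MOLM-14, and changes of -3.38 in MOLM-14, -0.80 in U937, -0.62 in HL-60 and -2.11 in KG-1 (adjusted p at most 3.97e-05). Its part in the members' changes was not tested.

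Other translation genes, from lists that overlap no member, were set beside the factors, with the shares of all genes called as given above. Of 8 termination and recycling genes, 7 were called lower in both MOLM-14 and KG-1. The remaining gene, GSPT2, was called higher in KG-1, at 0.59 (SE 0.15, adjusted p = 0.00182), and was not called in MOLM-14. GSPT1, the eRF3 release factor, and ABCE1, which splits the ribosome, fell in all 4 lines, and the U937 call of GSPT1 was lost without U937 DMSO replicate 1 or 2 or U937 R406 replicate 1 (adjusted p = 0.0612 to 0.0897). ABCE1 changed by -1.30 (SE 0.07, adjusted p = 2.73e-13) in MOLM-14, -0.34 (SE 0.07, adjusted p = 0.00212) in U937, -0.42 (SE 0.07, adjusted p = 0.000165) in HL-60 and -1.66 (SE 0.07, adjusted p = 2.6e-14) in KG-1. GSPT1 gave -1.39 (SE 0.081, adjusted p = 1e-12) in MOLM-14 and -1.06 (SE 0.081, adjusted p = 2.5e-10) in KG-1, and ETF1, the eRF1 release factor, -0.63 (SE 0.066, adjusted p = 2.01e-08) and -0.67 (SE 0.066, adjusted p = 1.3e-08). PELO, which rescues stalled ribosomes, fell by 0.90 in MOLM-14, but a gene-specific probe set gave 0.07 there.

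Of 5 genes that modify eIF5A or eEF2, 2 fell in MOLM-14 and 3 in KG-1. The KG-1 call of DPH1 was lost without KG-1 DMSO replicate 3 or KG-1 R406 replicate 1 or 3 (adjusted p = 0.0808 to 0.161), and DPH1 passed as higher in MOLM-14 without MOLM-14 DMSO replicate 1 or MOLM-14 R406 replicate 3 (adjusted p = 0.0227 to 0.0474). DPH2, which starts diphthamide synthesis on eEF2, fell in all 4 lines, with -2.11 (SE 0.10, adjusted p = 1.37e-14) in MOLM-14, -0.59 (SE 0.10, adjusted p = 0.000234) in U937, -0.61 (SE 0.10, adjusted p = 9.53e-05) in HL-60 and -1.67 (SE 0.10, adjusted p = 2.56e-12) in KG-1. DOHH, the last enzyme of hypusine synthesis on eIF5A, changed by -1.21 (SE 0.12, adjusted p = 1.24e-08) in MOLM-14, while a gene-specific probe set gave 0.21. DHPS, the first enzyme of that path, did not pass in MOLM-14 or KG-1 (-0.16 and -0.058).

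Of 8 genes of poly(A) binding and mRNA coupling, 2 rose and 3 fell in MOLM-14, and 1 rose and 3 fell in KG-1. PDCD4, which inhibits eIF4A, rose in MOLM-14 with 0.71 (SE 0.063, adjusted p = 1.34e-09), in U937 with 0.33 (SE 0.063, adjusted p = 0.00116) and in KG-1 with 1.30 (SE 0.063, adjusted p = 2.01e-13), and fell in HL-60 with -0.71 (SE 0.063, adjusted p = 4.5e-08). LARP1, a repressor that binds TOP messages, fell in all 4 lines, by 0.87 in MOLM-14, 0.20 in U937, 0.25 in HL-60 and 0.32 in KG-1. The U937 call of LARP1 was lost without U937 DMSO replicate 2 or U937 R406 replicate 1 or 3 (adjusted p = 0.0699 to 0.0794). PABPC4 and LARP4 fell in both MOLM-14 and KG-1, with PABPC4 at -0.54 and -0.34 and LARP4 at -0.86 and -0.48. PAIP1, a partner of the poly(A) binding protein, was the other gene called higher in MOLM-14.

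Of 6 genes of eIF2 kinases and the eIF2 phosphatase, 1 rose and 3 fell in MOLM-14, and 2 rose and 2 fell in KG-1. PPP1R15A (GADD34), the stress-induced subunit of the eIF2 phosphatase, changed by 1.27 (SE 0.11, adjusted p = 1.45e-09) in MOLM-14, 0.56 (SE 0.11, adjusted p = 0.00122) in HL-60 and 1.57 (SE 0.11, adjusted p = 1.06e-10) in KG-1, with -0.069 in U937. GCN1, the activator of the kinase GCN2, fell by 0.56 in MOLM-14 and 1.05 in KG-1. The kinase EIF2AK1 fell by 0.26 in MOLM-14, and EIF2AK3 fell by 0.34 in MOLM-14 and rose by 0.30 in KG-1, a call lost without KG-1 DMSO replicate 3 (adjusted p = 0.0564). In KG-1 EIF2AK2 was called lower as well.

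Of 9 genes of mTOR and MNK control, 4 rose and 4 fell in MOLM-14, and 5 rose and 4 fell in KG-1. TSC1, which holds mTOR in check with TSC2, rose with 0.64 (SE 0.086, adjusted p = 8.28e-07) in MOLM-14 and 0.93 (SE 0.086, adjusted p = 5.14e-09) in KG-1. TSC2 rose with 0.81 (SE 0.11, adjusted p = 8.93e-07) in MOLM-14 and stood at 0.35 (SE 0.11, adjusted p = 0.00932) in KG-1, where a gene-specific probe set gave -0.091. TSC1 was also called higher in U937, with 0.32 (SE 0.086, adjusted p = 0.0151), a call lost without U937 DMSO replicate 1 or U937 R406 replicate 2 (adjusted p = 0.0726 to 0.099). MKNK2, a kinase of eIF4E, rose with 0.68 (SE 0.068, adjusted p = 1.04e-08) in MOLM-14, 0.32 (SE 0.068, adjusted p = 0.00214) in HL-60 and 0.63 (SE 0.068, adjusted p = 6.93e-08) in KG-1. MKNK1, the other MNK kinase, rose in all 4 lines, by 0.40 in MOLM-14, 0.43 in U937, 0.48 in HL-60 and 0.35 in KG-1 (adjusted p at most 0.00493). DDIT4, a stress-induced mTOR inhibitor, fell in MOLM-14 with -1.10 (SE 0.076, adjusted p = 1.97e-11) and in U937 with -0.64 (SE 0.076, adjusted p = 7.02e-06), and rose in HL-60 with 0.46 (SE 0.076, adjusted p = 0.000158) and in KG-1 with 1.24 (SE 0.076, adjusted p = 7.63e-12).

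Of 6 mitochondrial translation factors, 2 rose and 2 fell in MOLM-14, and 1 rose and 2 fell in KG-1. TUFM, the mitochondrial counterpart of eEF1A, fell in all 4 lines, by 0.89 in MOLM-14, 0.28 in U937, 0.30 in HL-60 and 0.91 in KG-1. TSFM, its exchange factor, gave -1.19 (SE 0.11, adjusted p = 3.16e-09) in MOLM-14 and -1.28 (SE 0.11, adjusted p = 1.93e-09) in KG-1. MTRF1, a mitochondrial release factor, rose by 0.56 in MOLM-14 and 0.73 in KG-1, and MTIF2 rose by 0.25 in MOLM-14, a call lost without MOLM-14 R406 replicate 3 (adjusted p = 0.0888).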

How the data were processed

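RNA of 24 cell line samples (Qiagen RNeasy Mini, biotin label) was measured on Affymetrix high-throughput U133 arrays, A set. The deposited values are intensities made with RMA per the submitters' processing notes, with no version given. Their range and medians place the intensities on a linear scale. Of 22277 probe sets, 62 controls, 568 with several symbols and 1923 with none were set aside, which left 12165 genes, and the probe set with the highest mean log2(intensity + 1) stood for each of the 4505 genes with several. No dim gene was removed. limma 3.58.1 (R 4.3.3) fitted 1 model of 8 group means with a pseudocount of 1, 16 residual and 5.47 prior degrees of freedom. p-values were adjusted by Benjamini-Hochberg across the 12165 genes and called under 0.05, and the method was tested on simulated data. Groups came from the labels. Replicate numbers do not pair the samples: deviations of same-numbered arrays had correlations from -0.084 to 0.071. The highest correlation between any 2 arrays was below 1 and no pair held identical values.

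Fully described genes are, by rule, in each line the 8 highest and 8 lowest called members whose groups do not overlap, the 8 with the widest range of effects, the 6 with the widest range of DMSO levels, representatives of each complex, and up to 4 genes of each other translation list with the smallest p in MOLM-14, plus MYC. Other members are named where a count is small or to describe a complex. The members and the lists were chosen with earlier results of these data known, so the counts are descriptions. Promoter sequences are those of RefSeq (GRCh38.p14), matched by gene ID or symbol. Alternatives were quantile normalization, median centring, a pseudocount of 16, the dimmest 33.3% of genes left out, averaged probe sets, gene-specific probe sets, each line fitted alone, a trended robust prior, the replicate block and each array left out.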

Additional observations from a re-analysis of the deposited data

Results flagged for a closer look

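The R406 effect differed between the 4 lines for 40 of the 48 factor genes by the moderated F test. The range of the 4 log2 effects, highest minus lowest, was 1.80 for EIF2B3, 1.72 for EIF2S1, 1.71 for EIF4E, 1.69 for EIF4G1, 1.57 for EIF5A, 1.51 for EIF4A3, 1.5 for EIF1AX and 1.07 for EIF4A1. These 8 had their lowest effect in MOLM-14 or KG-1 and their highest in U937 or HL-60, which for EIF4A3 was 0.14 in U937, a change that did not pass. For the eIF4E binding proteins the range was 1.27 for EIF4EBP1, which fell in every line, and 0.59 for EIF4EBP2, which rose in U937 and fell in KG-1.

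Among members whose brightest probe set was called in opposite directions in different lines the range was 0.48 for EEF2, 0.42 for EIF2S3, 0.55 for EIF3D, 0.64 for EIF3G and 0.49 for EIF5. EEF2, EIF2S3 and EIF3D were lower in U937 and higher in KG-1, while EIF3G was higher in MOLM-14 and lower in KG-1. EIF5 was lower in KG-1, and its direction in MOLM-14 is not settled, since its brightest probe set was called higher and 2 others lower. With 3 arrays in a group, no single array was tested as an outlier.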

How the results depend on the processing

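The counts of members called in MOLM-14 and KG-1 stayed within 1.5 times of 14 higher and 19 lower, and of 14 higher and 23 lower, under every alternative run, with 11 to 14 and 19 to 20 in MOLM-14 and 11 to 15 and 23 in KG-1 when single arrays were left out. Calls in U937 and HL-60 were less stable. The 11 lower calls in U937 became 17 with a trended and robust prior and ranged from 7, without U937 DMSO replicate 1 or U937 R406 replicate 3, to 16, without KG-1 R406 replicate 2. In HL-60 the 1 higher call became 2 with probe sets averaged and 0 to 1 with single arrays left out, and the 4 lower calls became 2 with the line fitted alone and 2 to 5 with single arrays left out (2 without HL-60 R406 replicate 3). The median of the members in MOLM-14 moved to -0.012 with quantile normalization and from -0.13 to -0.041 without single arrays. In KG-1 it moved to -0.23 with median centring, -0.24 without the dimmest genes, -0.12 with probe sets averaged and -0.078 with a pseudocount of 16. Centring moved the split of all calls in U937 to 40.8% higher, against 52.9% in the tests above, and the members there to 0 higher and 16 lower. Signs reversed with gene-specific probe sets for DOHH in MOLM-14 (0.21) and U937 (0.033), PELO in MOLM-14 (0.070), TSC2 in KG-1 (-0.091) and EIF1 in KG-1 (-0.48), and with averaged probe sets for EIF4G2 in MOLM-14 (0.17), EIF5 in MOLM-14 (-0.16) and EIF1 in U937 (-0.23). These come from other probe sets of the same gene, and the cause was not tested. Under the replicate block the counts were 12 higher and 20 lower in MOLM-14, 0 and 9 in U937, 1 and 3 in HL-60 and 12 and 23 in KG-1, and since the numbers do not pair the samples this shows no weaker effect. Signal over background limits EEF1A2, EEF1G under its single symbol and EEF1AKMT2, which are among the dimmest 33.3% of genes.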
